A study of Mus musculus with 2 samples.

Results

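The genes described here encode 33 subunits of the integrin and laminin families, 23 integrin chains and 10 laminin chains, out of 21938 protein-coding genes annotated on chromosomes 1 to 19, X and Y. They were chosen by symbol in the GENCODE M21 annotation of mm10 and not by a measured value, though earlier results of these data were known. Open chromatin around them was measured by DNase-seq, in which a nuclease cuts accessible DNA and the fragment ends are read, in whole urinary bladder of 2 animals. Both were female B6CASTF1/J mice, the first cross of a C57BL/6 parent with the wild-derived CAST, aged 36 days, with no treatment named in the labels. They form 1 group without a control, have 1 library each, and are called replicate 1 (animal 5) and replicate 2 (animal 6). Whole bladder mixes lining epithelium, smooth muscle, stroma, vessels and blood cells. In such a mixture, fewer cells of a type and a less open site in each cell cannot be told apart. No test between groups was possible with 2 libraries of 1 group.

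Integrins are receptors that span the cell membrane and pair 1 alpha chain with 1 beta chain, and they tie the cytoskeleton to the matrix outside the cell or to other cells. Laminins are cross-shaped trimers of an alpha, a beta and a gamma chain that form the sheet-like core of basement membranes. In the bladder a basement membrane lies under the urothelium, and others wrap each smooth muscle cell, nerve and vessel. Integrins of leukocytes serve adhesion to vessel walls and uptake of particles, and the platelet integrin binds fibrinogen.

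For description, the genes were put in 6 classes by the cells in which their products are best known. The epithelial integrins were Itga2, Itga3, Itgb6 and Itgb8. The integrins of muscle and stroma were Itga1, Itga5, Itga7, Itga8, Itga9, Itga10 and Itga11. Itgb1, Itgav and Itgb5 are used by many cell types and were kept apart as broad integrins. The leukocyte and platelet integrins were Itga2b, Itga4, Itgal, Itgam, Itgax, Itgae, Itgb2, Itgb3 and Itgb7. Lama1, Lama3, Lama5 and Lamb3 formed the epithelial laminins, and Lama2, Lama4, Lamb1, Lamb2, Lamc1 and Lamc3 the laminins of muscle and vessels. Several genes are active outside their class, such as Itga4 in muscle and neural crest and Itgb3 in vessels, so the classes are a guide only.

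The libraries held 117773 and 102671 peaks in the larger of the authors' lists, with median heights of 0.845 and 0.739, and 280105 and 247833 footprints, short stretches protected from cutting. Peak height is the authors' value. Over all protein-coding genes, summed peak height was lower in replicate 2 by a median of -0.45 on the log2 scale, and differences between the animals below are given relative to that median. Markers of the tissue were read in the same way as the genes studied. A start was open in both animals at 5 of 5 urothelial, 4 of 5 smooth muscle, 3 of 4 fibroblast and 3 of 4 endothelial markers, compared with 1 of 7 leukocyte, 0 of 3 platelet and 1 of 3 Schwann cell markers. Over all protein-coding genes the share was 63.6%.

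An annotated transcript start was called open when a peak touched the 250 bp on either side of it. Of the 33 genes, 25 had at least 1 start open in both animals (75.8%), beside 63.6% of all protein-coding genes. Counting replicate 1 by itself, 26 were open, beside 65.9%, and replicate 2 by itself, 27, beside 65.1%. The most upstream start was open in both animals at 22 genes, beside 56.7%. All 33 had at least 1 peak in both animals in their domain, meaning the gene body and 20 kb to each side, beside 84.5%. By class, a start was open in both animals at 3 of 4 epithelial integrins, 6 of 7 muscle and stromal integrins, 3 of 3 broad integrins, 3 of 9 leukocyte and platelet integrins, 4 of 4 epithelial laminins and 6 of 6 laminins of muscle and vessels. Thus 22 of the 24 genes outside the leukocyte and platelet class were open in both animals with this peak list and window. The genes had 166 distinct starts, of which 72 (43.4%) were open in both animals, beside 48.9% of all starts of protein-coding genes. Neighbouring starts often lie under 1 peak. When starts of a gene up to 500 bp apart were joined, 29 of 93 start clusters (31.2%) were open in both animals, beside 32.5% for all genes. Open starts were rich in CpG, with a median of 29 CpG in the 501 bp around them, and closed starts had 8, beside 39 and 6 over all protein-coding genes.

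**Figure D1:**
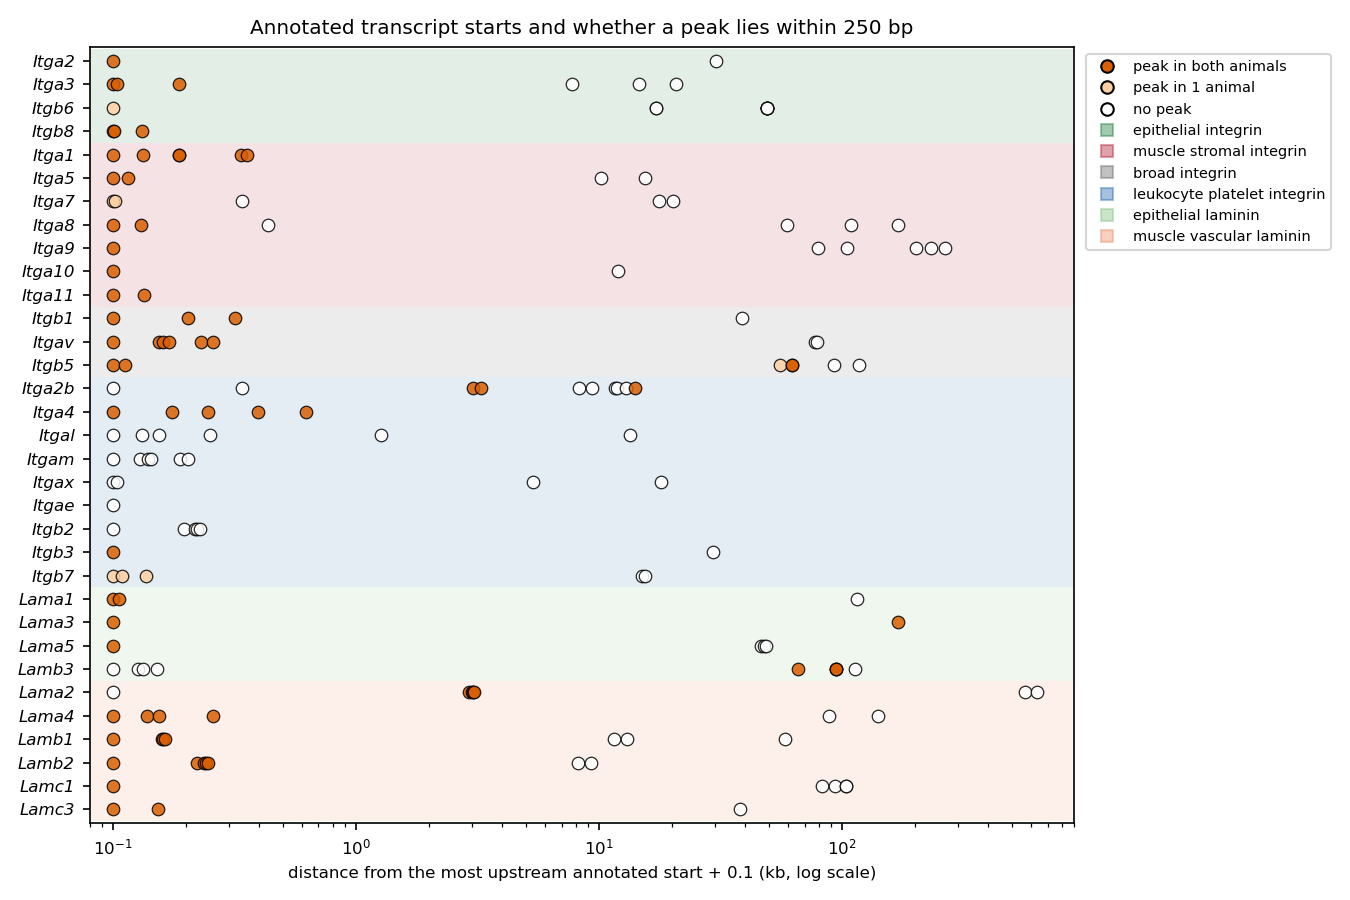
Each point is an annotated transcript start, placed by its distance from the most upstream start of its gene (kb plus 0.1, log axis), with genes as rows and classes as shaded bands. Filled points had a peak within 250 bp in both animals (72 of 166), pale points in 1 animal, and open points in neither. Most open starts sit at the left edge, while Itga2b, Lamb3 and Lama2 have a closed most upstream start and open starts further inside.

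Start peaks were mostly modest in height. The highest start peak exceeded the median over all genes with an open start (4.86 in replicate 1 and 3.56 in replicate 2) in both animals at 4 of the 33 genes, Itgb1, Itgav, Itga2b and Lamc1, beside 30.5% of all protein-coding genes. The plot of start heights by gene shows this order.

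**Figure D2:**
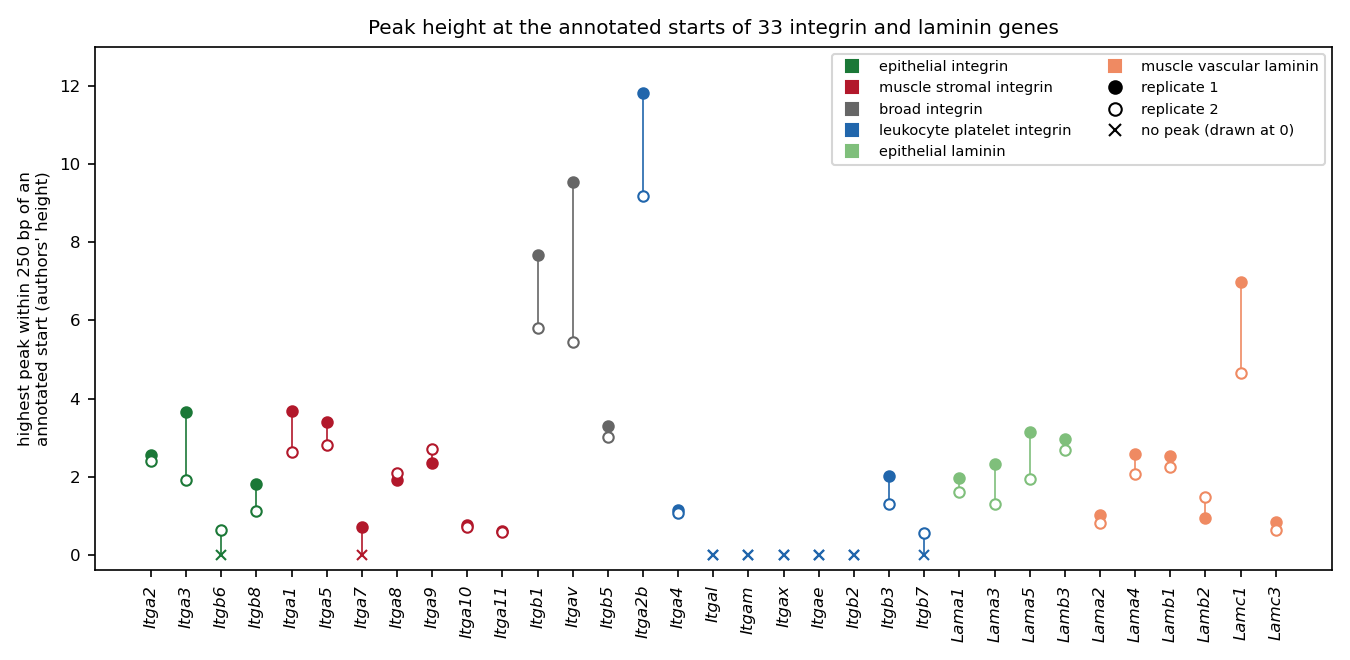
Height of the highest peak within 250 bp of any annotated start (authors' values, vertical axis) for each of the 33 genes, with filled points for replicate 1, open points for replicate 2 and crosses at 0 where no peak was called. Itga2b reaches 11.8 and 9.18 at an inner start, and 5 leukocyte integrins have crosses in both animals.

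Among the epithelial integrins, the start was open in both animals at Itga2, Itga3 and Itgb8 and in replicate 2 alone at Itgb6. Itga2 (chromosome 13, 114833081 to 114932100, mm10), the collagen-binding alpha2 chain, had start heights of 2.57 in replicate 1 and 2.41 in replicate 2 (2.49 ± 0.109, SD, n = 2). Itga3 (chromosome 11, 95044474 to 95076801), the alpha3 chain of a laminin receptor, had 3.66 and 1.91 (2.78 ± 1.23). The heights of Itga2 and Itga3 overlap. Itgb8, whose product pairs with alphav and helps release active TGF-beta, had 1.82 and 1.12. Itgb6 encodes the other epithelial partner of alphav. Its most upstream start (chromosome 2, 60722643) had no peak in replicate 1 and a low one of 0.629 in replicate 2. The authors' list of bases with a false discovery rate up to 0.05 nonetheless held 47 and 67 bases in that window, with lowest rates of 0.0324 and 0.0313, so both animals lay near the limit of detection. The 7 inner Itgb6 starts had no peak in either animal. The highest Itgb6 site outside other genes' starts lay in an intron 33442 bp inside, with 2.31 and 1.74.

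Itga3 was also the epithelial integrin with the densest peaks, at 1.94 and 1.38 per 10 kb of gene body and 20 kb on either side, and Itgb6 the one with the sparsest, at 0.608 and 0.426. The Itga3 domain holds the start of Pdk2, with a peak of 10.9 and 5.89. Without peaks within 1 kb of another gene's start, Itga3 had 1.52 and 0.968. The sequence below is shown because it is the highest site of this class, away from exons and other genes' starts, where a footprint found in both animals holds a searched motif. Here and below, a motif in or within a footprint may reach up to 5 bp past the footprint's ends. It lies in an Itga3 intron at chr11:95047073-95047238 (mm10, plus strand), had heights of 1.30 and 1.19, and the capitals mark a match to the core of the insulator protein CTCF.
Itga3 intron: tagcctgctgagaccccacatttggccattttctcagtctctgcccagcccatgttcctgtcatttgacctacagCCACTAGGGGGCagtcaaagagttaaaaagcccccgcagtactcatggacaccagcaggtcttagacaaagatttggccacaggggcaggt

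The integrins of muscle and stroma had an open start in both animals in 6 of 7 cases. The 2 highest were Itga1, a collagen receptor of smooth muscle, with 3.68 and 2.62 (3.15 ± 0.746), and Itga5, the fibronectin receptor chain, with 3.41 and 2.80 (3.11 ± 0.430). They did not differ beyond the spread between animals. All 6 Itga1 starts lie under that peak, and the protein-coding model Gm49395 starts within 250 bp, so the peak cannot be assigned to 1 of them. Itga9, a receptor for tenascin and other ligands, had 2.34 and 2.70, and Itga8, the nephronectin receptor chain of smooth muscle and mesenchyme, had 1.91 and 2.11. Both were slightly higher in replicate 2 in absolute height. The chondrocyte collagen receptor gene Itga10 had 0.774 and 0.722, and its fibroblast relative Itga11 had 0.608 and 0.578. Among those of the 33 genes open in both animals, Itga11 had the lowest start heights.

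Itga7 encodes the laminin-binding alpha7 chain of muscle. Its start (chromosome 10, 128933818) had a peak only in replicate 1, of height 0.718, and 94 and 0 bases were listed there at a false discovery rate up to 0.05. An intronic site 4853 bp inside was open in both animals, with 2.64 and 1.65. Among smooth muscle markers, the myosin gene Myh11 had start heights of 2.82 and 1.48, the actin gene Acta2 had 0.703 and 0.875, and Actg2 had no start peak in either animal.

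Peak density in this class ran from Itga5, with 2.72 and 1.76 per 10 kb, down to Itga8, with 0.255 and 0.0425. The long Itga8 gene (chromosome 2, 12106632 to 12301922) had a single peak in replicate 2, the one at its start. An antisense gene, E030013I19Rik, also starts within 1 kb of that peak. Replicate 1 had 5 more, all of them low (0.395 to 0.505). The highest site of the class away from other genes' starts lay beyond the end of Itga9 at chr9:118908321-118908500 (3.70 and 2.94), and holds 3 footprints found in both animals. The capitals mark an E-box, CAGCTG, which lies within 1 of them.
Itga9 flank: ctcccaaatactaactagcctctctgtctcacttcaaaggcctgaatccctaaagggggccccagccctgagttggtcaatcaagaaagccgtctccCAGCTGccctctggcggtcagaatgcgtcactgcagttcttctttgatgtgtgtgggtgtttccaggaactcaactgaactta

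After Itga2b, the broad integrins Itgav and Itgb1 had the highest start peaks of the 33 genes in both animals. Itgav (chromosome 2, 83724397 to 83806916), the alpha chain shared by the vitronectin and TGF-beta-activating receptors, had 9.54 and 5.45 (7.49 ± 2.89). Itgb1 (chromosome 8, 128685654 to 128733200), the most widely shared beta chain, had 7.68 and 5.82 (6.75 ± 1.32), which overlaps Itgav. Itgb5, another alphav partner, had 2.93 and 3.01 at its upstream starts and 3.31 and 2.16 at a pair of starts 62276 and 62282 bp further inside. Which set of starts had the higher peak therefore differed between the animals. Peaks were few around Itgb1, with 4 and 3 in all. Itgb5 had 30 and 22, or 1.88 and 1.38 per 10 kb, and held 2 of the 5 highest shared sites of all 33 genes away from the starts of any gene. They were a downstream site at chr16:33950941-33951140, with 5.31 and 3.66, and one at -8714 bp from the most upstream start, with 4.14 and 3.08. The downstream site carries the CTCF core, read on the other strand and in capitals, within a footprint found in both animals.
Itgb5 flank: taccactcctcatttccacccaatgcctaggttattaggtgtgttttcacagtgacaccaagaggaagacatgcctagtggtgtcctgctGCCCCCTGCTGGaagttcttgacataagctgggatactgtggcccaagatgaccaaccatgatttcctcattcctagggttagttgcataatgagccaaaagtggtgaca

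Leukocyte integrin genes were the ones without open starts. Itgal, Itgam, Itgax, Itgae and Itgb2, the chains of the leukocyte receptors LFA-1, Mac-1 and CD11c and of the receptor for E-cadherin on intraepithelial T cells, had no peak at any of their 22 starts in either animal. At Itgam, Itgae and Itgb2 not 1 base within 250 bp of a start was listed at a false discovery rate up to 0.05. The list held 23 bases in replicate 2 at the Itgax start (lowest rate 0.0361) and 33 at an inner Itgal start (0.0120). A peak of 0.884 and 0.595 lay within 1 kb of that inner Itgal start, outside the 250 bp. Itgb7, the beta chain of gut-homing lymphocytes, had a start peak only in replicate 2, of height 0.561. These are calls at the depth of these libraries, which is not given in the sources used here. Over the 7 leukocyte markers, start heights summed to 0.561 and 2.14. Adgre1 was open in both animals, with 0.561 and 0.459. Ptprc, Csf1r, Cd3e and Cd79a had no start peak in either animal, and Cd68 (1.02) and Spi1 (0.662) were open in replicate 2 alone. The part of blood cell content in the Itgb7 peak was not tested.

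The exceptions in this class were Itga4, Itgb3 and Itga2b. Itga4, the alpha4 chain of the VCAM-1 receptor, had 1.14 and 1.07 (1.11 ± 0.0527). Itgb3, the beta chain of platelet and vascular vitronectin receptors, had 2.01 and 1.29. Itga2b encodes the platelet fibrinogen receptor chain (chromosome 11, 102453297 to 102470122). Its coding start at 102469883 had no peak and no listed base in either animal. Further inside, 3 noncoding transcript starts were open, and the peak over a pair of them, at chr11:102467041-102467240, was the highest of all 33 genes outside other genes' starts, with 11.8 and 9.18. It overlaps an annotated exon and held 5 footprints found in both animals, none with a searched motif. With protein-coding transcripts only, 2 of the 9 genes of this class were open. The platelet markers Pf4, Gp9 and Gp1ba had no start peak in either animal.

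Closed starts did not mean empty surroundings. Itgb2 had a site in an intron 14829 bp inside with heights of 4.11 and 2.41, and 12 and 10 peaks in its domain. Itgb7 had a site over an exon 7283 bp inside with 3.83 and 2.79. Its domain was the densest of the 33 by the mean of both animals, at 1.97 and 3.57 peaks per 10 kb, but it contains the starts of 3 other protein-coding genes, among them the retinoic acid receptor gene Rarg (11.3 and 5.96). Without peaks at other genes' starts Itgb7 had 0.894 and 1.07. Itgax was the sparsest of the class, with a single peak of 0.932 and 0.408. The intronic Itgb2 site, at chr10:77544981-77545180, carries the RUNX core TGNGGT, in capitals, in a footprint found in both animals.
Itgb2 intron: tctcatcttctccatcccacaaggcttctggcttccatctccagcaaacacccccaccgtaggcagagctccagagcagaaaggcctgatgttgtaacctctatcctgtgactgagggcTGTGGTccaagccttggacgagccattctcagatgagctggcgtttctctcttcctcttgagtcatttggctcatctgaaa
A second site is shown, chosen after its values were seen, because it held 6 footprints found in both animals. It lies in an Itgb3 intron at chr11:104626041-104626320, with heights of 2.25 and 1.38, and here the capitals mark the footprints as called in replicate 1.
Itgb3 intron: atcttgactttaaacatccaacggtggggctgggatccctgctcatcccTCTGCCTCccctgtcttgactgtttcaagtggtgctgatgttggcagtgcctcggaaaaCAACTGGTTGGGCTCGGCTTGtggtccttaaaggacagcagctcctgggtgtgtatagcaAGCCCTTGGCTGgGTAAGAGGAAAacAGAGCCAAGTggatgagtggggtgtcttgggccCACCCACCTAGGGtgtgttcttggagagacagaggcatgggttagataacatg

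All 4 epithelial laminin genes had an open start in both animals. Lama5 (chromosome 2, 180176373 to 180225859), the alpha5 chain of mature epithelial and vascular basement membranes, had 3.13 and 1.95 (2.54 ± 0.841). Lama1, the alpha1 chain of embryonic basement membranes, had 1.96 and 1.60. Lama3 encodes the alpha3 chain of laminin-332, the anchor of basal epithelial cells, and is known for alternative promoters. Both annotated starts were open, with 2.32 and 1.31 at the upstream start and 1.88 and 0.739 at the one 170380 bp further inside, where an antisense model, Gm29200, also starts.

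Lamb3, the beta3 chain of laminin-332, was open at inner starts only. Its 4 upstream starts, on chromosome 1 from 193207699 to 193207750, had no peak within 250 bp and no listed base in either animal. The nearest shared peak was centred 692 bp inside, with 1.26 and 0.926, so the call depends on the window. A group of 3 starts from 193301993 on, coding ones included, had 2.37 and 1.45, and the last start, at 193320695, was closed. A noncoding start at 193273338 had 2.96 and 2.69, but the gene G0s2 starts within 250 bp of it. A pattern of closed most upstream and open inner starts was found at 3 of the 33 genes, Lamb3, Lama2 and Itga2b, beside 5.28% of all protein-coding genes. The highest site of Lamb3 outside other genes' starts was intronic, at chr1:193316061-193316280, with 4.58 and 2.88. It held 4 footprints found in both animals without a searched motif, and is shown, with these footprints in capitals, as the highest site of the epithelial laminins outside other genes' starts, chosen after its values were seen.
Lamb3 intron: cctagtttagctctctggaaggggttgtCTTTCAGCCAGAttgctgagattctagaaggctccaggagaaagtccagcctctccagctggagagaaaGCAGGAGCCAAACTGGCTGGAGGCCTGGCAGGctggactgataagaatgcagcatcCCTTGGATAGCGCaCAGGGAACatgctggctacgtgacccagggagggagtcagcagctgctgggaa

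Lama5 was the densest epithelial laminin by the mean of both animals and Lama1 the sparsest. Lama5 had 21 peaks in replicate 1 and 7 in replicate 2 (2.35 and 0.782 per 10 kb), and Lama1 had 7 and 6 (0.423 and 0.363). The animals thus differed 3-fold in peak number at Lama5. The 13 Lama5 peaks found in replicate 1 alone had heights of 0.742 to 1.71. Lama3 held a higher intronic site, with 2.89 and 1.95 and a CTCF core in a shared footprint, which is not printed. Just upstream of the Lama5 start, the replicate 1 peak at chr2:180226061-180226300 had a height of 1.96. It holds the SP/KLF core GGGCGG, read on the other strand and in capitals, in a footprint found in both animals. The replicate 2 peak that overlaps it (1.95) is the one already given for the start, so replicate 2 had no separate site here.
Lama5 upstream: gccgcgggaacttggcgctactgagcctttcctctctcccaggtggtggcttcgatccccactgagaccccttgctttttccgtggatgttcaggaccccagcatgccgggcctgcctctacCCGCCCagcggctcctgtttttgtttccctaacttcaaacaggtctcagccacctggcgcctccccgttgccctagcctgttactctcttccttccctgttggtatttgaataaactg

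**Figure D3:**
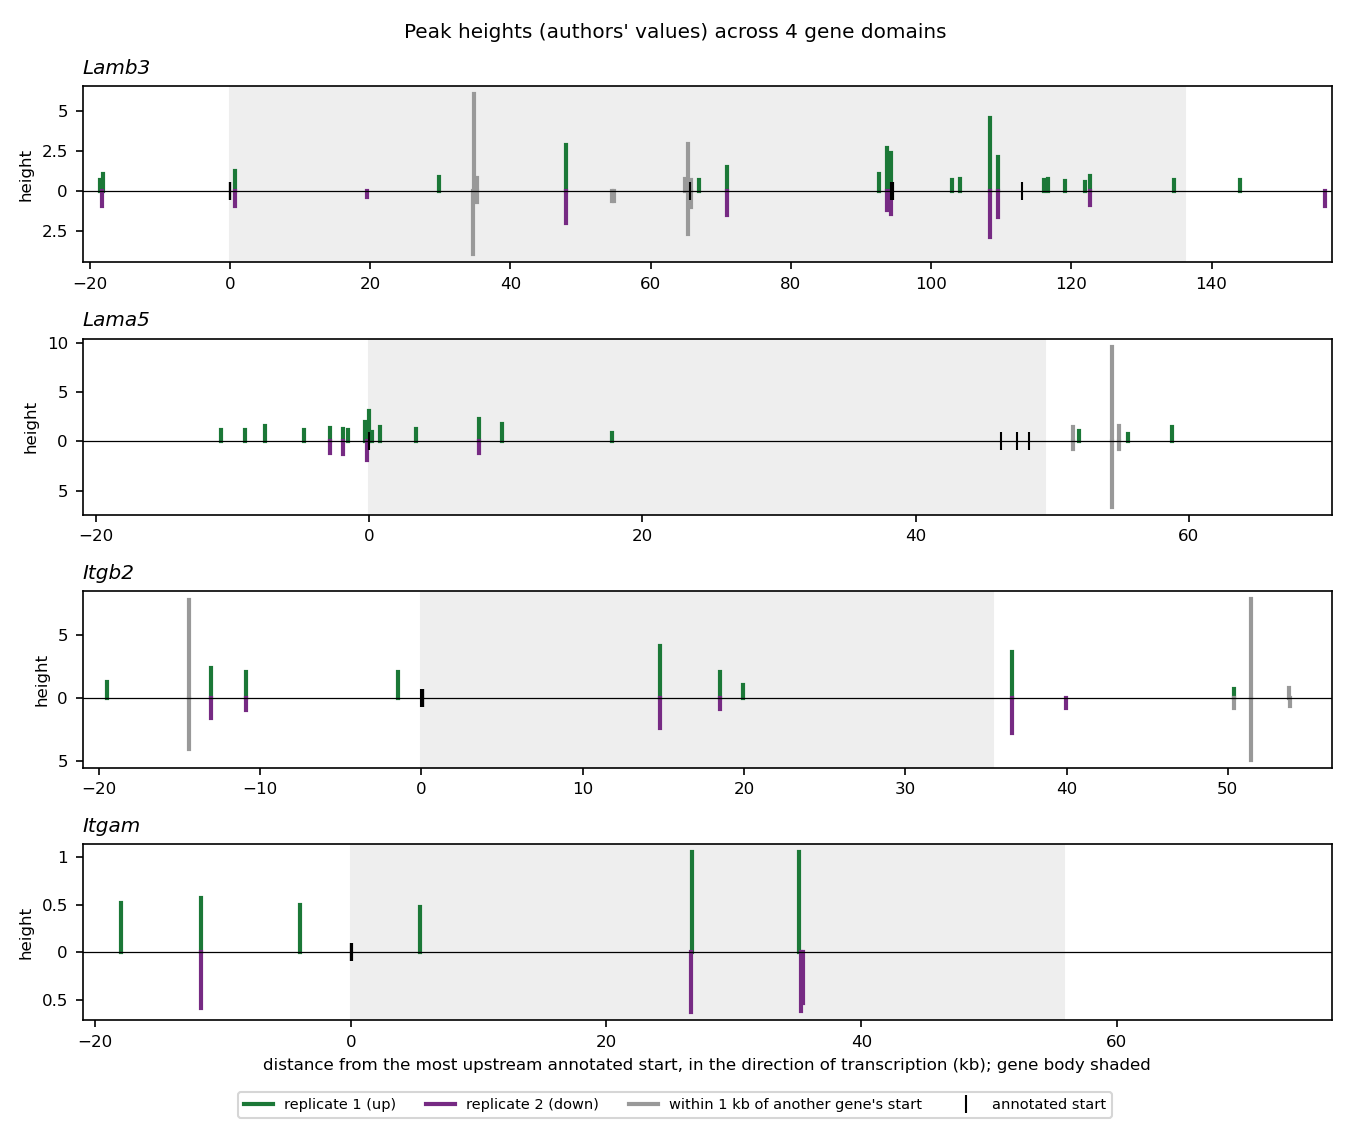
Peak heights (authors' values, replicate 1 upward and replicate 2 downward, scales differ between panels) against distance from the most upstream annotated start in kb, for Lamb3, Lama5, Itgb2 and Itgam, with the gene body shaded, annotated starts as black ticks and peaks within 1 kb of another gene's start in grey. Lamb3 shows no peak over its 4 upstream starts and its highest own site about 108 kb inside, Lama5 shows many sites in replicate 1 alone, and Itgb2 and Itgam show sites away from closed starts.

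The 6 laminin genes of muscle and vessels were open in both animals as well. Lamc1 (chromosome 1, 153218922 to 153332786), the gamma1 chain found in most laminins, had 6.98 and 4.66 (5.82 ± 1.64) and stood above the rest in both animals. Lama4, the alpha4 chain of vessels, had 2.59 and 2.07, and Lamb1, the common beta1 chain, had 2.53 and 2.25. These 2 overlap. Lamb2, the beta2 chain of muscle and nerve basement membranes, was higher in replicate 2, with 0.932 and 1.48. Lama2, the alpha2 chain of muscle whose loss causes muscular dystrophy, had 1.02 and 0.824, and Lamc3 had 0.829 and 0.637. At Lama2 the most upstream start (chromosome 10, 27619758), which belongs to a noncoding transcript, was closed in both animals, and the 4 open starts began 2816 bp further inside.

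Lamb2 was the densest of these genes, with 2.17 and 1.38 peaks per 10 kb, and Lama2 the sparsest, with 0.235 and 0.118. Lamb2 is short and has the starts of 4 other protein-coding genes within its domain, and without peaks at such starts it had 0.787 and 0.394. Lama2 spans 639.7 kb and had only 16 and 8 peaks, none above 1.02. Away from exons and other genes' starts, the highest sites of the class with a motif in a shared footprint were those just upstream of Lamc1 (6.98 and 4.66, 440 bp wide) and of Lamb2, at chr9:108478761-108479100 (3.48 and 3.30, 340 bp wide), which are too wide to print. The narrower site below, in a Lamc3 intron at chr2:31915241-31915400 with 1.86 and 1.66, is shown for this class. The capitals mark a match to the searched letters TGNGGT, and read TGAGGT on the other strand. N allows any base, and whether RUNX factors bind this form was not tested.
Lamc3 intron: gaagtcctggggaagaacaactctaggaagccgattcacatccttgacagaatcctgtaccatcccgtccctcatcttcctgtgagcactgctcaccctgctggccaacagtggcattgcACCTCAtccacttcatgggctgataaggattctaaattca

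Classes differed little in peak density, and their order depended on neighbouring genes. The class median was 0.960 ± 0.102 per 10 kb (SD of the medians of 2 animals) for leukocyte and platelet integrins and 0.930 ± 0.0728 for laminins of muscle and vessels. It was 0.798 ± 0.306 for epithelial laminins, 0.792 ± 0.0226 for muscle and stromal integrins, 0.775 ± 0.173 for broad integrins and 0.768 ± 0.0585 for epithelial integrins, beside 0.720 ± 0.0677 over all protein-coding genes. Without peaks within 1 kb of another gene's start, leukocyte and platelet integrins had 0.571 ± 0.0776, the lowest of the 6 classes, and the other 5 lay between 0.621 and 0.699, beside 0.444 ± 0.0399 for all genes. The first place of the leukocyte class thus rested on sites at the starts of other genes.

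**Figure D4:**
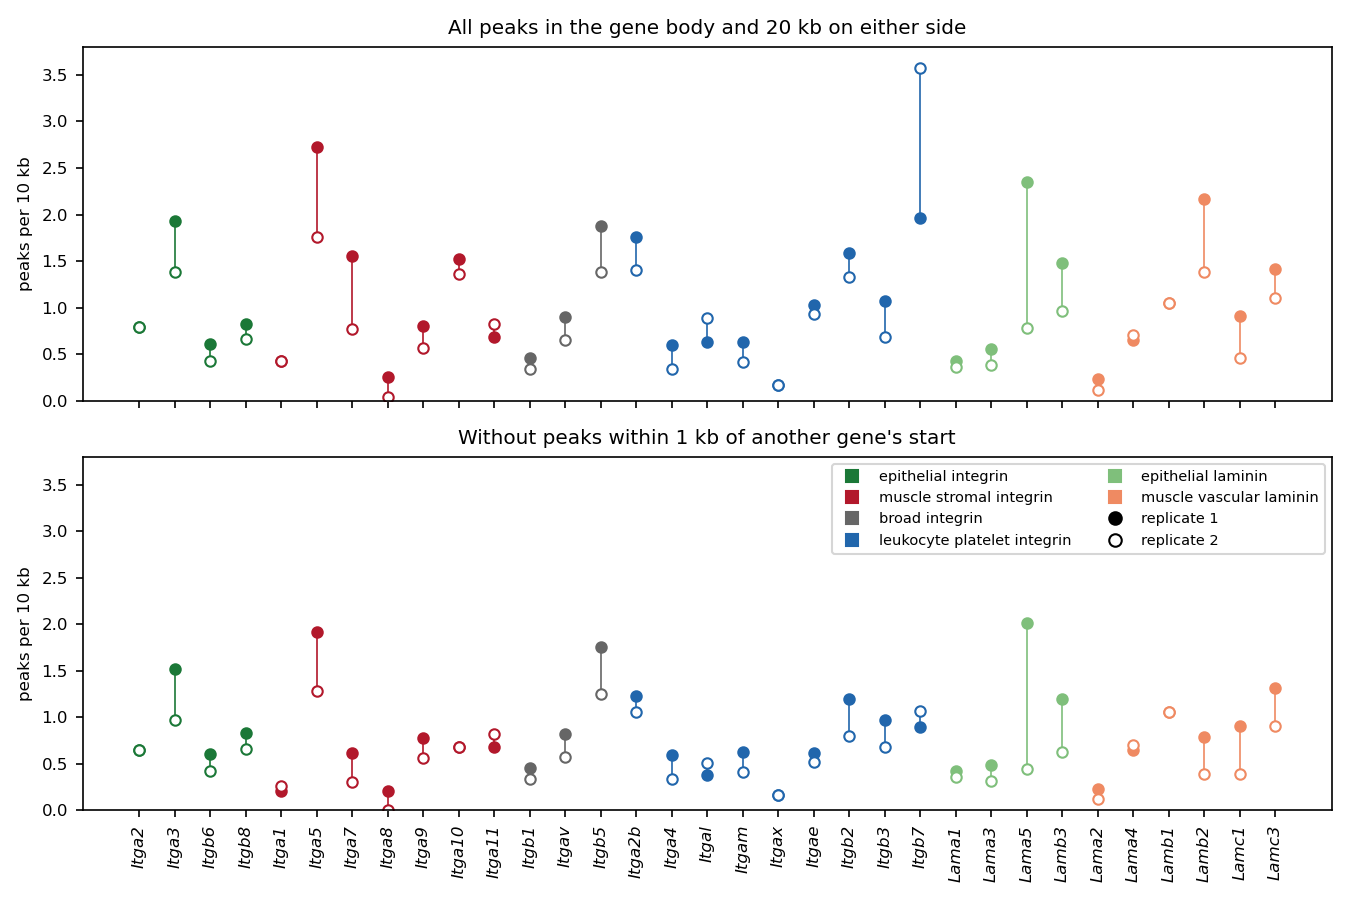
Peaks per 10 kb of gene body and 20 kb on either side for each gene, with filled points for replicate 1 and open points for replicate 2. The upper panel counts all peaks and the lower panel leaves out those within 1 kb of another gene's start, where Itgb7 drops from 1.97 and 3.57 to 0.894 and 1.07.

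Of the 397 and 300 distinct peaks around the 33 genes, 64.7% in replicate 1 and 83.7% in replicate 2 overlapped a peak of the other animal, beside 71.5% and 80.7% of all peaks. These are shares of lists of unequal size. The 257 shared sites, counted by the peaks of replicate 1, lay within 1 kb of the gene's own starts in 54 cases, at other genes' starts in 48, over exons in 15, in introns in 100 and in the flanks in 40. Introns held the largest share of the shared sites at broad integrins, 54.8%, and the smallest, 23.6%, at leukocyte and platelet integrins, whose largest share, 29.1%, lay at other genes' starts.

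Footprints numbered 970 and 810 over the 33 domains, with a median of 2.06 and 1.80 per 10 kb, beside 2.00 and 1.87 over all protein-coding genes. Of those in replicate 1, 43.3% overlapped a footprint of replicate 2, and 52.5% the other way, beside 49.6% and 55.2%. The lowest shares were at epithelial integrins, with 29.3% and 38.4%. The shared sites held 376 footprints found in both animals. Each was extended by 5 bp at either end for the motif search, so a counted match can reach past the footprint itself. Counted over these, the core GGGCGG of SP and KLF factors had 47 matches, in 37 sites. The CTCF core had 22, RUNX (TGNGGT) had 19, the E-box CAGCTG had 10, AP-1 (TGANTCA) had 6, and TEAD (GGAATG) had 4. N allows any base, so the RUNX matches include forms such as the TGAGGT of the Lamc3 intron. Matches in footprints were not counted over all genes, so no background share stands beside them. Shared footprints held 4 matches of ETS (CCGGAAG), 3 of the GATA factor motif with letters AGATAA, and none of PU.1 (GAGGAAGT), forkhead (TGTTTAC), NFI or the SRF CArG box. Both strands were searched, the ETS and PU.1 letters overlap in part, and GC-rich motifs can overlap each other.

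In the 150 bp around the midpoints of the 257 shared sites, the E-box was found in 21.01% of sites, beside 14.5% of all 84217 shared sites. It was in 32.4% of the epithelial laminin sites (12 of 37) and 27.8% of the muscle and stromal integrin sites (15 of 54), and in 10% of the epithelial integrin sites (3 of 30). Among sites over 1 kb from every annotated start, the share was 25.2% of 155, beside 16.5% of 54305. AP-1 was in 11.3% beside 8.84%, TEAD in 11.3% beside 8.99%, SP/KLF in 22.6% beside 19.7%, CTCF in 10.1% beside 9.98%, and RUNX in 24.1% beside 26.1%. Both RUNX shares count TGNGGT with any base at N. The SRF CArG box, a motif of smooth muscle genes, was in 0 of the 257 windows, beside 0.679% of all. Sites of 1 gene are not independent of each other, so these shares are descriptions.

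Between the animals, 23 of the 33 genes had a lower summed height in replicate 2 after centring, beside 50% of all protein-coding genes by construction. That reference includes genes without a peak in either animal, which take a centred value of 0.45 by construction. All 33 genes had a peak in both animals, beside 84.5% of all genes. The reference is therefore not matched to them, for this count and for the medians that follow. The median over the 33 was -0.15 (log2, replicate 2 minus replicate 1, pseudocount 1). It was -0.25 for epithelial laminins, where 3 of 4 genes were lower, and -0.20 for epithelial integrins, where 4 of 4 were. It was -0.16 for muscle and stromal integrins, -0.15 for broad integrins, and -0.02 for both leukocyte and platelet integrins and laminins of muscle and vessels. Among marker lists, urothelium had a median of -0.35 with 5 of 5 lower, endothelium -0.21 with 3 of 4 lower and smooth muscle -0.19 with 3 of 5 lower. Leukocyte markers had -0.05 with 5 of 7 lower, Schwann cell markers -0.03 with 2 of 3 lower, fibroblast markers 0.0042 with 2 of 4 lower, and platelet markers 0.38 with 0 of 3 lower. The part of tissue composition in the difference was not tested. With only peaks found in both animals, 15 of the 33 genes were lower and their median was 0.0157. With the smaller peak list these were 16 and 0.0037, and with the higher 50% of peaks 17 and -0.0053. In the gene body only they were 24 and -0.14, and without peaks within 1 kb of another gene's start 24 and -0.17. A pseudocount of 0.1 gave 22 and -0.12. The lower values in replicate 2 thus held in some settings and not in others, and depended on which peaks were counted.

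Lama5 differed most, by -0.97, at percentile 0.146 of all genes. Its summed height was 38.3 in replicate 1 and 13.7 in replicate 2, over 4.17 and 1.40 kb of called sequence with mean heights of 1.82 and 1.96. With shared peaks alone the Lama5 difference was -0.29, and without peaks at other genes' starts it was -1.67. Itga7 followed with -0.45 and Lamb2 with -0.37. The Lamb2 difference turned to 0.05 without peaks at other genes' starts and to 0.22 in the gene body only. In the other direction Itgal had 0.64, Itgb7 0.29 and Lamb1 0.27. The Itgal domain holds the start of Zfp768, and without peaks at other genes' starts the Itgal difference was 0.09 and that of Itgb7 was -0.14.

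**Figure D5:**
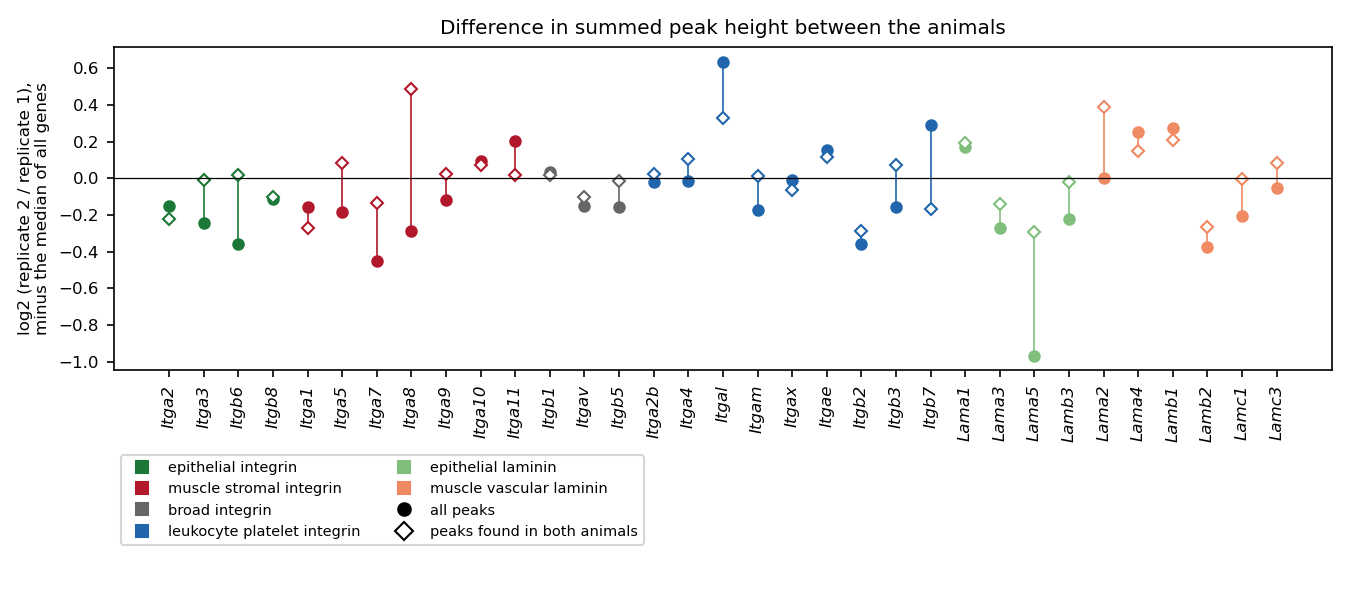
Log2 ratio of summed peak height in replicate 2 over replicate 1, minus the median of all protein-coding genes, for each of the 33 genes, with circles for all peaks and diamonds for peaks found in both animals. Lama5 lies lowest at -0.97 with all peaks and at -0.29 with shared peaks, and Itgal highest at 0.64.

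Other genes of the same adhesion pathway were read alongside, and those named besides the highest and lowest of a list were picked after their values were seen. The counts of open genes in these short lists stand beside 63.6% of all protein-coding genes open in both animals. Of 11 basement membrane partners, 11 had a start open in both animals, from 16.03 and 9.20 at Dag1, the dystroglycan receptor for laminin, to 0.703 and 0.433 at Vtn, which encodes vitronectin. The perlecan gene Hspg2 had 9.88 and 6.69, and the paired collagen IV genes Col4a1 and Col4a2 share a peak of 2.55 and 2.17. Of 16 adaptors that link integrins to actin, 15 were open in both animals. Vcl, encoding vinculin, had 15.96 and 8.65, and the talin gene Tln1 had 8.51 and 5.90, while Tln2 had no start peak in either. Among kindlins, Fermt2 of mesenchymal cells had 4.14 and 2.53, Fermt1 of epithelia 2.14 and 1.06, and Fermt3 of blood cells 0.932 and 0.646. Of 6 hemidesmosome genes 5 were open in both animals. The highest was Plec, with 6.21 and 4.54, and the integrin chains had 2.64 and 1.74 at Itga6 and 2.64 and 1.58 at Itgb4. Col17a1 had a peak of 0.433 in replicate 2 alone. The leukocyte chain gene Itgad had no start peak in either animal, and Itgb2l had one of 0.340 in replicate 2 alone.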

How the data were processed

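DNase-seq peaks, footprints and base-wise false discovery rates of 2 bladder libraries were used, each file belonging to 1 library. Peak height is a signal the authors computed per peak and deposited, and the scaling, the aligner and the peak caller are each not given in the sources used here. Of the 2 p-value type columns the authors deposited, one gives a false discovery rate per base for local cutting, listed up to 0.05, and the other a constant footprint threshold of 0.01, so footprints could not be ranked. Coordinates are on mm10, per the labels. The peak list with more entries was used for each animal, and the smaller one served as an alternative.

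Gene models came from GENCODE M21 and sequence from GRCm38, the assembly behind mm10, and every peak end lay within the reference chromosomes. The sequence is that of the reference and not of the hybrid animals. Overlap meant at least 1 bp. A start was open with a peak within 250 bp. A domain spans a gene with 20 kb added at each end. Footprints were extended by 5 bp for motif matches, and 12 motifs were searched. Start windows were narrower than 1 kb so that starts of 1 gene could be told apart. Python 3.11.15, numpy 2.4.6, pysam 0.24.0, samtools 1.23.1, bedtools 2.31.1 and matplotlib 3.10.9 were used, and the counting steps were tested on simulated peaks. With 1 group of 2 libraries no test was made. Values are given per animal or as mean and SD beside all protein-coding genes.

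The genes, classes and lists were chosen with earlier results of these data known. All 33 genes are accounted for. By rule, values are given for the densest and sparsest gene of each class, genes without a start open in both animals, genes with a closed most upstream and an open inner start, the 10 highest shared sites, and the 3 largest differences each way. Printed sites were limited in width, which passed over the 2 highest of the laminins of muscle and vessels. Start heights of the other genes, the Lamb3 and Itgb3 sequences and the genes of the domain plot were added after their values were seen. Alternatives were the smaller list, the higher 50% of peaks, other start windows and domains, protein-coding transcripts, a pseudocount of 0.1, no centring, shared peaks, and each animal alone.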

Additional observations from a re-analysis of the deposited data

How the results depend on the processing

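The number of genes with a start open in both animals was 25. It was 22 with the smaller list (59.1% of all genes), 22 with the higher 50% of peaks (57.4%), 26 within 1 kb (66.8%), 20 where the peak had to cover the start (51.9%) and 24 with coding transcripts only (62.2%), where 39 of 77 starts were open beside 55.03% of all coding starts. Muscle and stromal integrins fell from 6 to 4 of 7 with the smaller list, the higher 50% of peaks and covered starts. Laminins of muscle and vessels fell to 5 of 6 in the same settings. Leukocyte and platelet integrins stayed at 3 of 9 with the smaller list and the higher 50% of peaks. Where the peak had to cover the start they fell to 2, and epithelial integrins to 2 of 4. Read depth is not given, 2 animals bound the precision, and start calls are limited to sites the authors listed. No paired analysis was possible because there is 1 group.

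Class values follow in the order epithelial, muscle and stromal, broad, and leukocyte and platelet integrins, then epithelial laminins and laminins of muscle and vessels, then all 33 genes, with only those that moved by more than the spread between animals. Peak density with the smaller list was 0.453, 0.364 and 0.619 for epithelial, muscle and leukocyte integrins, 0.396 and 0.405 for the laminin classes and 0.431 in all. With the higher 50% of peaks it was 0.349, 0.308, 0.571, 0.502, 0.473, 0.364 and 0.406. In the gene body only it was 0.837 for epithelial, 0.595 for muscle and 0.668 for leukocyte integrins, 1.03 for laminins of muscle and 0.692 in all. With 50 kb flanks it was 0.629 for epithelial, 0.898 for muscle and 0.600 for broad integrins. Without peaks at other genes' starts it was 0.696, 0.624 and 0.571 for epithelial, muscle and leukocyte integrins, 0.699 for laminins of muscle and 0.626 in all.

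Footprints per 10 kb in the gene body only were 1.37 for muscle, 2.005 for broad and 1.52 for leukocyte integrins, 1.24 and 1.26 for the laminin classes and 1.51 in all. With 50 kb flanks they were 1.26, 2.19, 1.73 and 3.41 for the integrin classes and 2.13 for epithelial laminins. Without those at other genes' starts they were 1.23, 1.14, 1.93 and 1.35 for the integrins, 1.32 for epithelial laminins and 1.43 in all.

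The difference between animals without centring was -0.65, -0.61, -0.60 and -0.47 for the integrins, -0.47 for laminins of muscle and -0.60 in all. With shared peaks it was -0.0558 for epithelial and -0.0177 for broad integrins, and turned to 0.0252 for muscle and 0.0221 for leukocyte integrins, 0.12 for laminins of muscle and 0.0157 in all. The smaller list turned it to 0.23 for leukocyte integrins, 0.0438 for laminins of muscle and 0.0037 in all, and the higher 50% of peaks to 0.10 for leukocyte integrins and 0.12 for laminins of muscle. In the gene body only it was -0.40 for broad integrins and turned to 0.10 for laminins of muscle, and without peaks at other genes' starts it was -0.26 for broad integrins. The cause of these changes was not tested.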
